A study of Mus musculus with 768 samples.

Results

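Bcl11b encodes a zinc-finger transcription factor that is switched on as thymic precursors commit to the T lineage, and the cells described here are those of 1 single-cell library divided by its counts. The library is labelled as CD25-positive DN2-3 thymocytes of Vav-cre Tcf7fl/fl mice. The cells were selected on their Bcl11b counts in this library: Bcl11b-positive cells had 2 or more Bcl11b counts and Bcl11b-negative cells had 0, among cells with 1000 or more detected genes. Of the 96 cells of the plate, 76 passed the gene minimum: 58 were Bcl11b-positive, 15 were Bcl11b-negative and 3 had 1 count and were placed in neither set. The 73 cells of both sets were part of 675 cells kept among 768 in the series.

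The series measured RNA in single thymocytes of C57BL/6 mice aged 6 to 8 weeks. The genotypes were wild type (WT), germline Tcf7-/-, Vav-cre Tcf7fl/fl and Lck-cre Tcf7fl/fl, and sorted CD4-negative, CD8-negative, lineage-negative, CD45-positive cells filled 8 plates of 96. Here the Vav-cre DN2-3 plate is described, and the WT, Tcf7-/- and both Lck-cre plates of the same gate are set beside it. Vav-cre is a recombinase transgene active in all blood cells. Both sets of cells carry the same labelled floxed Tcf7 genotype, and neither is a control for the other. The labels do not give the deletion state of single cells. No animal is named and the plate is a single library, so cells are not replicates here: no test was made between the sets, and each interval (95%, exact) covers counting error only.

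Early thymic precursors pass from the DN1 through the DN2 to the DN3 stage under Notch signals, and TCF1, the product of Tcf7, acts early in that path. Bcl11b is needed to leave the DN2 stage and to hold back natural killer (NK) and innate lymphoid genes. At DN3, cells express the recombinase genes Rag1 and Rag2 and the pre-T-cell receptor alpha chain gene Ptcra, and rearrange the receptor beta chain. Gzma encodes granzyme A, a protease of cytotoxic granules, and Id2 encodes an inhibitor of E proteins, the factors that drive Ptcra and the Rag genes.

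The 250 bases upstream of the RefSeq start (build GRCm38.p6) are shown for 4 genes: Bcl11b, which set the split, Rag1 and Ptcra, the recombinase and pre-receptor genes set against it, and Gzma, the cytotoxic marker found in every cell. Capitals mark the E-box CAGCTG, the Runx motif TGTGGT and the TCF core CTTTGA, searched on both strands, with no match overlapping another. The 4 windows lie on the minus strand at chr12:108003415-108003664, chr2:101649533-101649782, chr17:46763713-46763962 and chr13:113100982-113101231.
Bcl11b: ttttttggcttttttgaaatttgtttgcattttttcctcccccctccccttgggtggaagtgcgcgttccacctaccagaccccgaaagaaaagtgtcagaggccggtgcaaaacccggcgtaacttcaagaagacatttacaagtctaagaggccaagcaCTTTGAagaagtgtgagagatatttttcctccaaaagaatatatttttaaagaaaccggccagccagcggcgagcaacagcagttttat
Rag1: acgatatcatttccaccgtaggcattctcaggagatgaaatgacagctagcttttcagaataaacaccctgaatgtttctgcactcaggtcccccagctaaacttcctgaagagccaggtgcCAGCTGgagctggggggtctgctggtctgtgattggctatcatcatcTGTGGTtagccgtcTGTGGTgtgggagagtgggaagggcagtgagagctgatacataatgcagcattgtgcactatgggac
Ptcra: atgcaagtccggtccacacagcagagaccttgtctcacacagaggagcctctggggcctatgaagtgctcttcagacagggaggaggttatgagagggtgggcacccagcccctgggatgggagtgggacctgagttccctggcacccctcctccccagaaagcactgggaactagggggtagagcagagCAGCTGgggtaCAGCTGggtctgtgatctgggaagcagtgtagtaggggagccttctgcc
Gzma: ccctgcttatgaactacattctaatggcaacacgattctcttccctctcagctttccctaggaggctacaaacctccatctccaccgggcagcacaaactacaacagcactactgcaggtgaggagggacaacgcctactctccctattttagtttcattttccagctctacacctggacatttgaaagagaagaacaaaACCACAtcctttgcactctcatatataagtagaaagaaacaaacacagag
The Rag1 window held 1 E-box and 2 Runx motifs, the Ptcra window 2 E-boxes, the Gzma window 1 Runx motif and the Bcl11b window 1 TCF core. Of 32851 promoter windows of this length, 13% held the E-box, 14% the Runx motif and 13.8% the TCF core, so these matches describe the letters of the windows and nothing more.

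In the GENCODE annotation of mm10, all 6 genes followed most closely lie on the minus strand. Bcl11b spans chr12:107910403-108003602, Tcf7 chr11:52252371-52283014 and Gzma chr13:113093825-113100981. Id2 spans chr12:25093799-25097140, Ptcra chr17:46755663-46763712 and Rag1 chr2:101638282-101649501. The RefSeq start of Bcl11b used above lies inside the GENCODE interval of the gene. Values below are those of whole genes, since the counts do not separate exons from other parts of a transcript.

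Tcf7, the targeted gene, was read in both sets. In the Bcl11b-positive cells it had 41.8 CPM, the counts of a gene per 1e+06 counts of the cell or set, in the lowest cell, 940 in the median and 3868 in the highest, and in the Bcl11b-negative cells 97.2, 597 and 4040 CPM, so the sets overlapped over nearly the whole range. Summed over cells it stood at 1000 CPM (968 to 1033) in the positive and 758 CPM (691 to 829) in the negative cells. The log2 ratio, taken throughout as positive over negative after adding 10 CPM to each, was 0.40, and it was 0.67 in cells matched for depth. The labels do not say which exons are floxed, so reads of the undeleted parts of the transcript can remain, and these counts do not check the deletion. Over all kept cells of a plate Tcf7 stood at 964 CPM in the library labelled Vav-cre, 862 CPM in WT, and 122 CPM in Tcf7-/-, with 762 and 658 CPM in both plates of Lck-cre cells. The library labelled Vav-cre was thus not below WT, so its Tcf7 counts do not show the labelled deletion.

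Depth differed between the sets. The positive cells held from 5343 to 193420 counts with a median of 49522.5, and from 1246 to 5081 detected genes. The negative cells held from 2298 to 158749 counts with a median of 16460.0, and from 1065 to 4236 genes. Below 10000 counts, 6 of 11 cells were negative (54.5%), between 10000 and 50000 counts 5 of 31 (16.1%), and at 50000 or more 4 of 34 (11.8%). Of the 20 cells left out for too few genes, 16 had 0 Bcl11b counts and 3 had 2 or more, with totals from 313 to 18619.

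**Figure D1:**
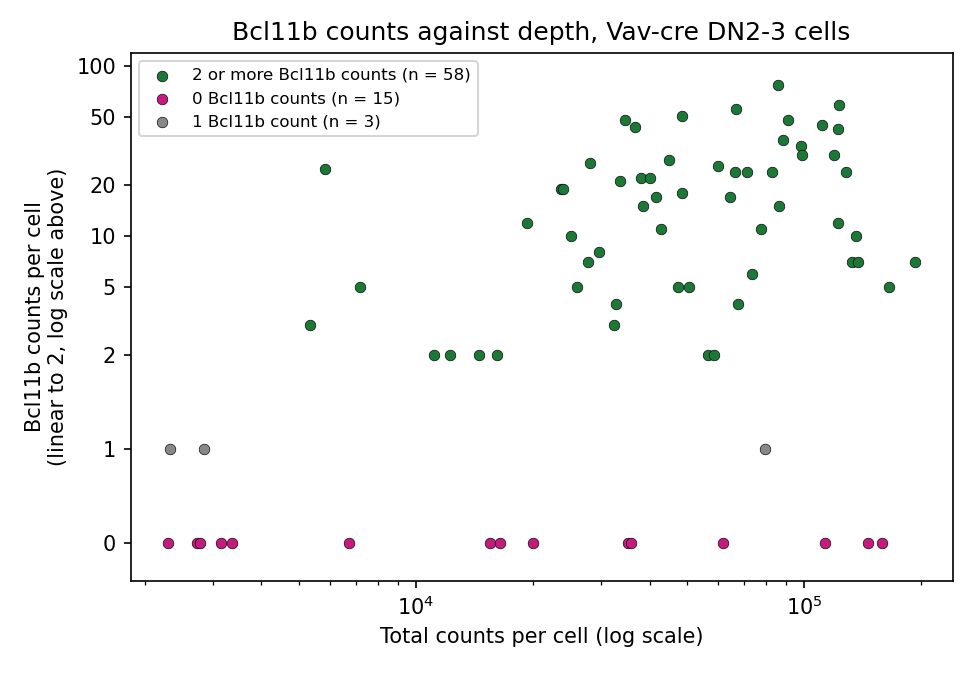
Bcl11b counts per cell (vertical axis, linear up to 2 and log scale above) against the total counts of the cell (horizontal log axis) for the 76 kept cells of the Vav-cre DN2-3 library; each point is 1 cell, coloured by set. The 5 shallowest negative cells lie below 5000 counts, where no positive cell lies, and the 3 deepest lie from 113436 to 158749.

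The Bcl11b values chose the cells and are given as a description. A positive cell held from 2 to 78 Bcl11b counts with a median of 16, or from 30.3 to 4283 CPM with a median of 320 CPM. Summed, the positive cells stood at 313 CPM and the negative cells at 0 CPM, where a floor of 3 counts over the set, used here for fold bounds, is 4.81 CPM. Just inside the threshold were 6 cells with 2 counts, with totals of 11146 to 58546. Just outside it were the 3 cells with 1 count, with totals of 2321, 2848 and 79219.

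A count of 0 did not mean the same in every negative cell. In the 5 negative cells with 2298 to 3351 counts, the median positive level of 320 CPM would give 0.735 to 1.07 Bcl11b counts, so a count of 0 there does not reliably tell that level from none. Single Bcl11b counts were read at such totals, in the cells of 2321 and 2848 counts. In the 3 deepest negative cells, of 113436, 146316 and 158749 counts, the same level would give 36.3 to 50.8 counts, and none was found. Those 3 cells held 67% of all counts of the negative set and weigh most in its summed values. Thinned to 5000 counts, 29 of 69 cells of the library (42%) had 0 Bcl11b counts, and 32 of 58 positive cells (55.2%, 41.5 to 68.3%) still had 2 or more.

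Because of this gap, the main comparisons below are given over all cells and again in 10 pairs of a negative and a positive cell with totals within 1.5-fold of each other. The paired cells had median totals of 35645.0 (positive) and 35518.0 (negative) and sums of 602387 and 610009 counts. The 5 negative cells under 5000 counts had no partner in the positive set. Shares of cells are given after thinning each cell to 5000 counts, which left 58 positive and 10 negative cells. Counts of list members are read against all genes measured, meaning 50 CPM or more in either set. Of 4027 such genes 605 (15%) were at least 2-fold higher and 557 (13.8%) at least 2-fold lower in the positive cells, with a median log2 ratio of -0.03. At matched depth both shares were larger, 1105 (25.8%) and 1030 (24%) of the 4287 genes measured there, 49.8% in either direction. List members were those measured over all cells. Of the 4027 genes so measured, 696 were at least 2-fold higher and 1059 lower at matched depth, with a median log2 ratio of -0.16. Matched counts of list members are read against these.

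Gzma was at a like level on both sides of the split. It was found in all 58 positive and all 15 negative cells with 2 or more counts, and this held after thinning (58 of 58, at least 93.8%, and 10 of 10, at least 69.2%). Positive cells ranged from 2012 to 18306 CPM with a median of 9161, and negative cells from 3990 to 16971 CPM with a median of 10191. The range of the negative cells lay inside that of the positive cells. The summed levels were 9195 (9097 to 9294) and 10815 (10559 to 11076) CPM, a log2 ratio of -0.23, which was -0.18 in the depth-matched cells and -0.02 without the highest cell of each set.

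The Gzma level of the library was above those of the other plates of the gate. It stood at 9343 CPM over the 76 kept cells, against 1078 CPM in WT and 2633 CPM in Tcf7-/- (median cell 2038 CPM), and it was 788 and 789 CPM in the plates of Lck-cre cells. In the lowest cell of the library it was 2012 CPM, above the WT median of 734 CPM but just under the Tcf7-/- median. Single cells overlapped, since the highest Tcf7-/- cell had 20120 CPM, more than the 18306 CPM of the highest cell here. The DN1 plate of the same genotype had 2 or more Gzma counts in 8 of 58 cells, and 17 of the 20 cells left out of the DN2-3 plate had them too.

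Of the other NK genes, few were present in either set. Eomes and Tbx21, the transcription factors of NK cells, and the NK receptor genes Ncr1 and Klrb1c had 0 counts in both. Among 26 NK and cytotoxic genes, 5 were measured: Gzma, Gzmb, Nkg7, Ctsw and Serpinb6b. None was at least 2-fold higher in positive cells and 1 was at least 2-fold lower, with a median log2 ratio of -0.47. That 1 gene was Gzmb, granzyme B, and all of its 43 negative counts came from 1 cell of 15540 counts. Nkg7, a granule membrane protein gene, stood at 326 CPM in positive and 492 CPM in negative cells (log2 ratio -0.58), and at 0.12 without the highest cell of each set, since 58.3% of its negative counts lay in 1 cell.

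Id2 had nearly the same summed level in both sets. Positive cells ranged from 0 to 1463 CPM with a median of 279.8, and negative cells from 0 to 731 CPM with a median of 164. The summed levels were 381 (362 to 402) and 359 (313 to 409) CPM, a ratio of 1.06 (0.922 to 1.23). The log2 ratio was 0.08 over all cells and -0.19 in depth-matched cells, but 0.63 when each cell had equal weight and 0.97 after thinning. Id2 was found in 48 of 58 positive and 7 of 15 negative cells, a gap that narrowed to 51.7% (38.2 to 65%) and 40% (12.2 to 73.8%) at the thinned depth.

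Other genes of innate lymphoid cells were mostly within 2-fold over all cells. Of 24 listed, 6 were measured, with a median log2 ratio of 0.47; 1 was at least 2-fold higher and 0 lower. At matched depth the median was 0.63 and 3 were at least 2-fold higher: Ikzf2, Ltb (log2 ratio 1.57) and Gata3 (1.02). The gene at least 2-fold higher over all cells was Ikzf2, which encodes the transcription factor Helios, at 169.6 against 43.2 CPM (log2 ratio 1.75, and 2.31 in depth-matched cells), found in 27 of 58 and 2 of 15 cells. Il7r, the interleukin-7 receptor gene, had a log2 ratio of 0.33 and Tox, a factor of early lymphoid development, one of -0.95 that was 0.08 at matched depth. Zbtb16, which encodes PLZF, stood at 0.545 and 1.60 CPM, that is 2 counts and 1 count.

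Ptcra was higher in the positive cells by just under 2-fold. Positive cells ranged from 0 to 1428 CPM with a median of 219.8, and negative cells from 0 to 1305 CPM with a median of 189, so the sets overlapped throughout. Summed, it had 323 (305 to 342) and 167 (136 to 202) CPM, a ratio of 1.94 (1.59 to 2.40) and a log2 ratio of 0.92. The log2 ratio was 0.65 in depth-matched cells and 0.17 with equal weight per cell. Ptcra was found in 42 of 58 and 7 of 15 cells, and after thinning in 43.1% (30.2 to 56.8%) and 20% (2.52 to 55.6%).

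Rag1 had the largest ratio over all cells in the list of pre-receptor and recombination genes. Positive cells ranged from 0 to 2260 CPM with a median of 160.6, and negative cells from 0 to 318 CPM with a median of 0. Summed, Rag1 had 248 (232 to 265) and 36.8 (23.4 to 55.3) CPM, a ratio of 6.73 (4.46 to 10.7) and a log2 ratio of 2.46. At matched depth the sums were 242 and 36.1 CPM (log2 ratio 2.45), with medians of 109.7 and 13.9 CPM per cell. Of the 146 Rag1 counts of the matched positive cells, 78 lay in 1 cell of 34507 counts. The negative set held 23 Rag1 counts in all, and its cells of 146316 and 158749 counts held 0. Counts of 2 or more were found in 39 of 58 and 3 of 15 cells, in 6 and 3 of the 10 matched cells, and at the thinned depth in 31% (19.5 to 44.5%) and 10% (0.253 to 44.5%). The individual cells overlapped even so, since many positive cells also had 0 counts.

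Rag2, whose product works as a complex with that of Rag1, did not keep its direction. It had 121 against 46.5 CPM over all cells (log2 ratio 1.22), but 4.98 against 45.9 CPM in the matched cells (log2 ratio -1.90). Of the 10 matched positive cells, 1 had 2 or more Rag2 counts, against 30 of all 58 positive cells. Dntt, the gene of the terminal transferase that adds bases at receptor joints, had 1358 and 1297 CPM (log2 ratio 0.07, and 0.06 at matched depth). Lig4, a ligase of the joining step, had 24.8 and 60.9 CPM (log2 ratio -1.03, and -2.12 at matched depth), with 60.5% of its negative counts in 1 cell.

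**Figure D2:**
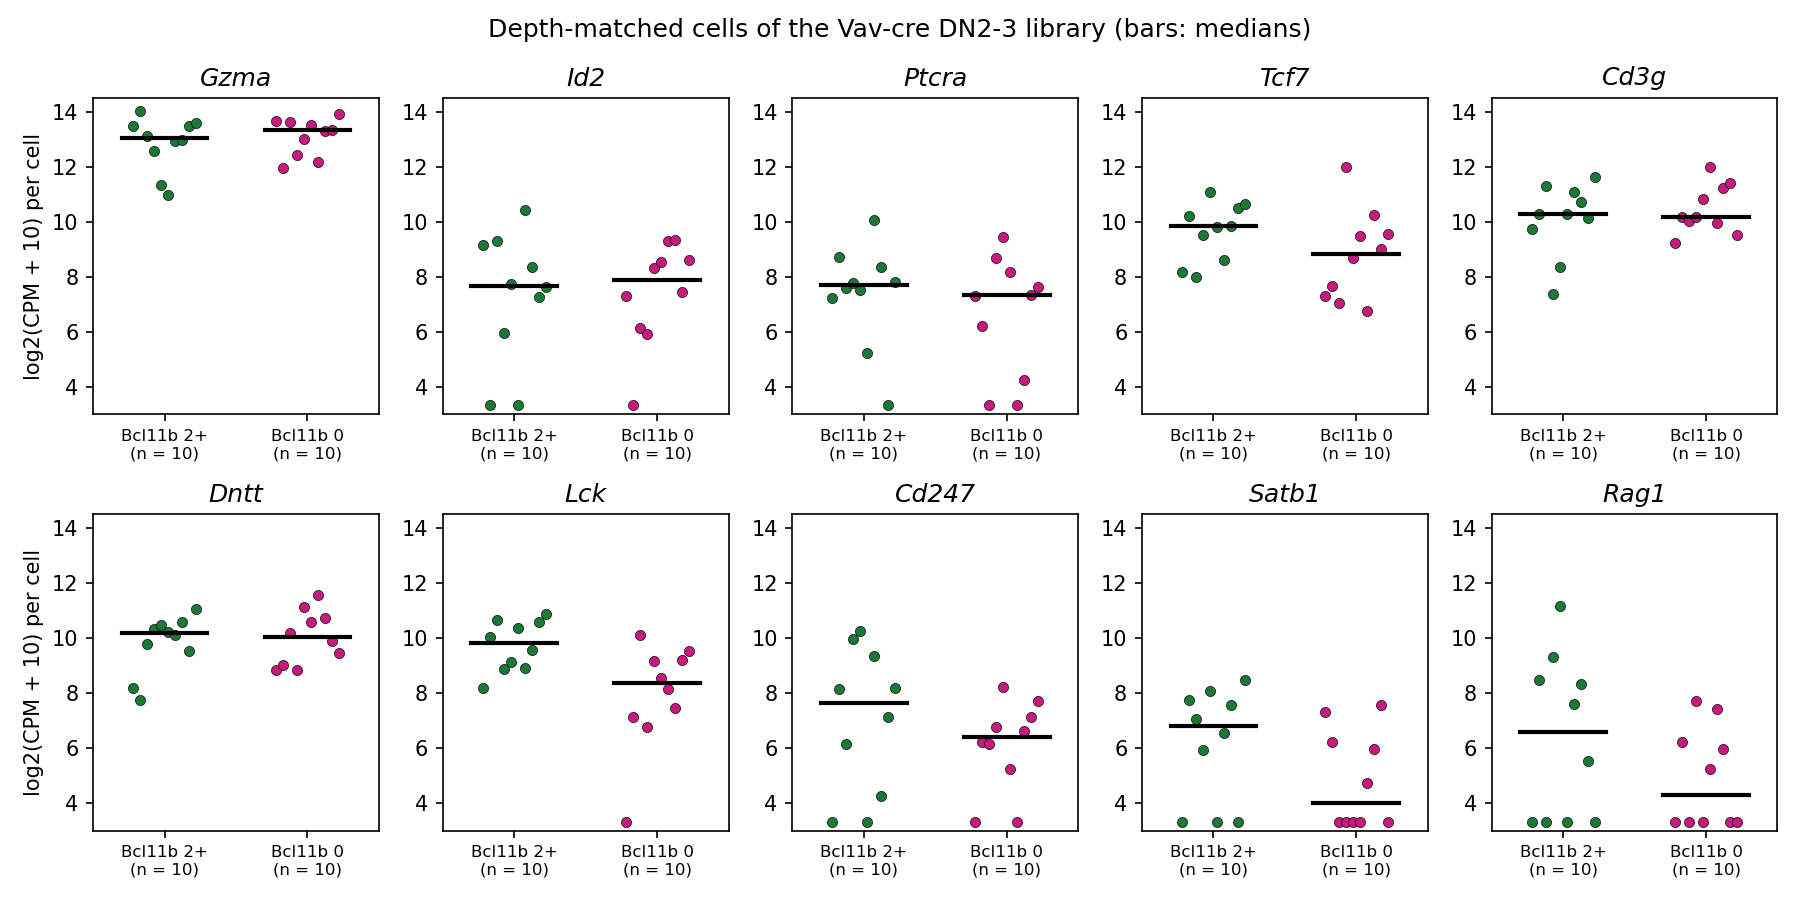
Levels of 10 genes in the depth-matched cells, as log2(CPM + 10) per cell on the vertical axis; each point is 1 of 10 Bcl11b-positive (2+) or 10 Bcl11b-negative (0) cells and the bar is the median. Gzma, Cd3g and Dntt lie at the same height in both sets, while the medians of Lck (895 against 319 CPM), Cd247 (203 against 76.3 CPM) and Rag1 (109.7 against 13.9 CPM) are higher in the positive cells with single cells overlapping.

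Over the whole list of pre-receptor and recombination genes the sets were alike in the median. Of 18 genes 15 were measured, with a median log2 ratio of 0.07 over all cells and -0.10 at matched depth. At least 2-fold higher were 4 (Rag1, Notch3, Rag2, Notch1) and lower 2 (Cd8a, Lig4). Ly6d, a surface protein gene of lymphoid precursors, had 3855 and 3926 CPM over all cells, and a log2 ratio of 0.20 at matched depth. Endou had 1572 and 1562 CPM over all cells, but 2532 and 1559 CPM in the matched cells (log2 ratio 0.70).

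The identity genes of the T lineage were present in both sets. Of 9 markers of committed T precursors, the positive cells had all 9 and the negative cells 6 at 50 CPM or more. These markers include Bcl11b, whose presence in the positive and absence from the negative cells was fixed by the rule. The summed level of the markers ran from 1567 to 18747 CPM in positive cells (median 5511). In negative cells it ran from 1937 to 7385 CPM (median 4293). Bcl11b adds to these sums in the positive cells only. The Bcl11b-negative cells therefore carried T-precursor RNA by most of the same markers. Bcl11b was at 0 there by the rule. Rag1 and Rag2 were read in the negative cells, at 36.8 and 46.5 CPM, but under 50 CPM. Of 23 T-lineage identity genes 20 were measured, with a median log2 ratio of 0.23 in all cells and 0.23 at matched depth; 2 were at least 2-fold higher and 1 lower.

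Of the CD3 genes, which encode signalling chains of the T-cell receptor, Cd3g and Cd3d had like levels in both sets. Cd3g ranged from 0 to 11298 CPM in positive cells (median 1534) and from 596 to 4069 CPM in negative cells (median 1271). Its sums were 1780 (1737 to 1824) and 1816 (1712 to 1925) CPM, a log2 ratio of -0.03, and 0.02 at matched depth. All 15 negative cells had 2 or more Cd3g counts. Cd3d had 2105 and 1722 CPM (log2 ratio 0.29, and 0.04 at matched depth), and Lat, the adaptor downstream of the receptor, 1393 and 1342 CPM (log2 ratio 0.05). Cd3e, at 274 and 242 CPM (log2 ratio 0.18), was less stable. Its log2 ratio was 0.73 at matched depth, -1.35 after thinning and -0.36 with equal weight per cell.

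Cd247, the CD3 zeta chain gene, was higher in the positive cells. Positive cells ranged from 0 to 1605 CPM with a median of 286.5, and negative cells from 0 to 298 CPM with a median of 60.8. Its sums were 368 (348 to 388) and 123 (97.3 to 154) CPM, a ratio of 2.98 (2.37 to 3.80), with log2 ratios of 1.5 over all cells and 1.11 at matched depth. It was found in 46 of 58 and 5 of 15 cells, and after thinning in 43.1% (30.2 to 56.8%) and 10% (0.253 to 44.5%).

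Lck, the kinase that phosphorylates those chains, showed the same direction, with a smaller ratio than Cd247 over all cells and a larger one at matched depth. Positive cells ranged from 0 to 2338 CPM with a median of 804, and negative cells from 0 to 2176 CPM with a median of 360. Its sums were 883 (853 to 914) and 484 (431 to 541) CPM, a ratio of 1.83 (1.62 to 2.06), with log2 ratios of 0.85 and, at matched depth, 1.36. At the thinned depth 82.8% (70.6 to 91.4%) of positive and 40% (12.2 to 73.8%) of negative cells had 2 or more Lck counts.

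Satb1, a chromatin organiser of thymocytes, had 174 (161 to 188) and 59.3 (41.7 to 81.7) CPM, with log2 ratios of 1.41 and, at matched depth, 1.34. Of the 37 negative counts, 70.3% lay in 1 cell, and without the highest cell of each set the log2 ratio was 2.34. After thinning, 25.9% (15.3 to 39%) of positive and 0 of 10 negative cells (exact interval up to 30.8%) had 2 or more counts. Cd6, a receptor-associated surface protein gene, was the member at least 2-fold lower, at 33.5 against 99.3 CPM. Its log2 ratio was -2.26 at matched depth, but -0.26 after thinning and 0.05 with equal weight per cell.

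Notch targets were mostly higher in the positive cells. Of 13 listed, 8 were measured, all with a log2 ratio above 0, from 0.18 (Il2ra) to 1.87 (Notch3), and a median of 0.85 that was 0.90 at matched depth but 0.16 with equal weight per cell. At least 2-fold higher were 3 (Notch3, Notch1 and Myc) and lower 0, beside 15% and 13.8% of all measured genes. Of these, Notch3 and Myc also passed 2-fold at matched depth (log2 ratios 2.18 and 1.39), but had 0.74 and -0.13 with equal weight per cell. Notch3, a receptor that is itself a Notch target, had 79.5 and 14.4 CPM (9 negative counts), found in 17 of 58 and 1 of 15 cells. Hes1, a repressor directly induced by Notch, had 267 and 155 CPM (log2 ratio 0.74) and Dtx1, a regulator of Notch, 306 and 221 CPM (0.45). Il2ra, which encodes the CD25 of the sort gate, had 233 and 203 CPM. At matched depth the log2 ratios of Il2ra and Notch1 were -0.47 and -0.45.

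Factors that act with or against TCF1 differed in direction. Lef1, the relative of Tcf7, had 568 and 456 CPM (log2 ratio 0.31, and 0.77 at matched depth). The E protein genes Tcf12 and Tcf3 had log2 ratios of 0.37 and -0.64. Id3, an inhibitor of E proteins, had 100.7 and 19.2 CPM (log2 ratio 1.92, and 2.24 at matched depth), but 0.04 after thinning, with 12 counts in the negative set. Of 7 measured Runx, Ets and Ikaros factors the median was -0.03 over all cells and 1.00 at matched depth. Ikzf2 and Ikzf1 were at least 2-fold higher, and Runx1 had 249 and 160.2 CPM (log2 ratio 0.61, and 1.23 at matched depth). Ets2 and Elf1 went the other way, with log2 ratios of -0.97 and -0.73, and -1.63 and -0.51 at matched depth. Of the negative counts of Ets2, 95.5% lay in 1 cell. At matched depth 4 of the 7 were at least 2-fold higher and 2 lower, namely Ets2 and Ets1 (-1.14).

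Of 6 measured genes of the Bcl2 survival family, 3 were at least 2-fold higher over all cells and 0 lower, with a median of 0.74. At matched depth 1 was at least 2-fold higher, with a median of 0.33, beside 696 of all 4027 measured genes. Mcl1, an inhibitor of cell death, had 139 (127 to 151) and 41.6 (27.2 to 61) CPM, with log2 ratios of 1.52 and, at matched depth, 2.25. It was found in 32 of 58 positive cells and 1 of 15 negative cells. Bcl2l11, which encodes the death-promoting protein Bim, had 81.1 and 11.2 CPM (log2 ratio 2.1, and 0.70 at matched depth), and Bid, another death-promoting gene, had 73.8 and 28.8 CPM. Bcl2 itself had 175 and 133 CPM. Bax went the other way, at 130 and 184 CPM (log2 ratio -0.48, and -0.61 at matched depth).

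Genes of the early, uncommitted progenitor were nearly absent from both sets. Cd34, Lmo2 and Mef2c had 0 counts in both, and Flt3 and Spi1 0 counts in the negative cells. Of 22 listed, 2 were measured, both lower in the positive cells: Cpa3, a mast cell and early progenitor protease gene, and Lyl1, a factor of early progenitors. Cpa3 had 10.9 and 290 CPM, yet 176 of its 181 negative counts (97.2%) came from the deepest negative cell, and without the highest cell of each set its log2 ratio was -0.22 in place of -3.84. Lyl1 had 17.7 and 68.9 CPM, in 3 of 58 and 2 of 15 cells, with a log2 ratio of -2.76 at matched depth.

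The medians of the cell cycle lists did not hold at like depth. Of 9 measured G2 and M phase genes, 7 were at least 2-fold higher in positive cells and 1 lower, with a median of 2.09. In the matched cells the median was 0.10, where 4 were still at least 2-fold higher and 2 were at least 2-fold lower. After thinning the median was 0.78. Birc5, a mitotic survival gene, had 121 and 3.20 CPM, a ratio of 37.7 (10.4 to 313) on 2 negative counts, but was found in 7 of 58 positive cells. Cenpe, a kinetochore motor gene, had 62.1 CPM and 0 counts in the negative cells, at least 12.9-fold higher at a floor of 3 counts over the negative set. Of its counts, 41.7% lay in 1 cell. At matched depth the log2 ratios of Birc5 and Cenpe were 2.59 and 3.29, each with 2 or more counts in 2 positive cells. Of 17 measured S phase genes, 1 was at least 2-fold higher and 1 lower, with a median of -0.21, while at matched depth 9 were at least 2-fold lower in positive cells and the median was -1.05. Dut, which keeps uracil out of DNA, had 183 and 777 CPM in the matched cells, and Pcna, the replication clamp, 59.8 and 333 CPM. Over all cells Dut had 390 and 766 CPM, and Pcna 299 and 333 CPM. The Pcna level of the positive cells was thus not alike in both. The matched negative cells held 610009 of the 624319 counts of the negative set. Its levels could therefore hardly differ between the comparisons, for any gene. After thinning the log2 ratios were -1.37 (Dut) and -0.59 (Pcna).

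**Figure D3:**
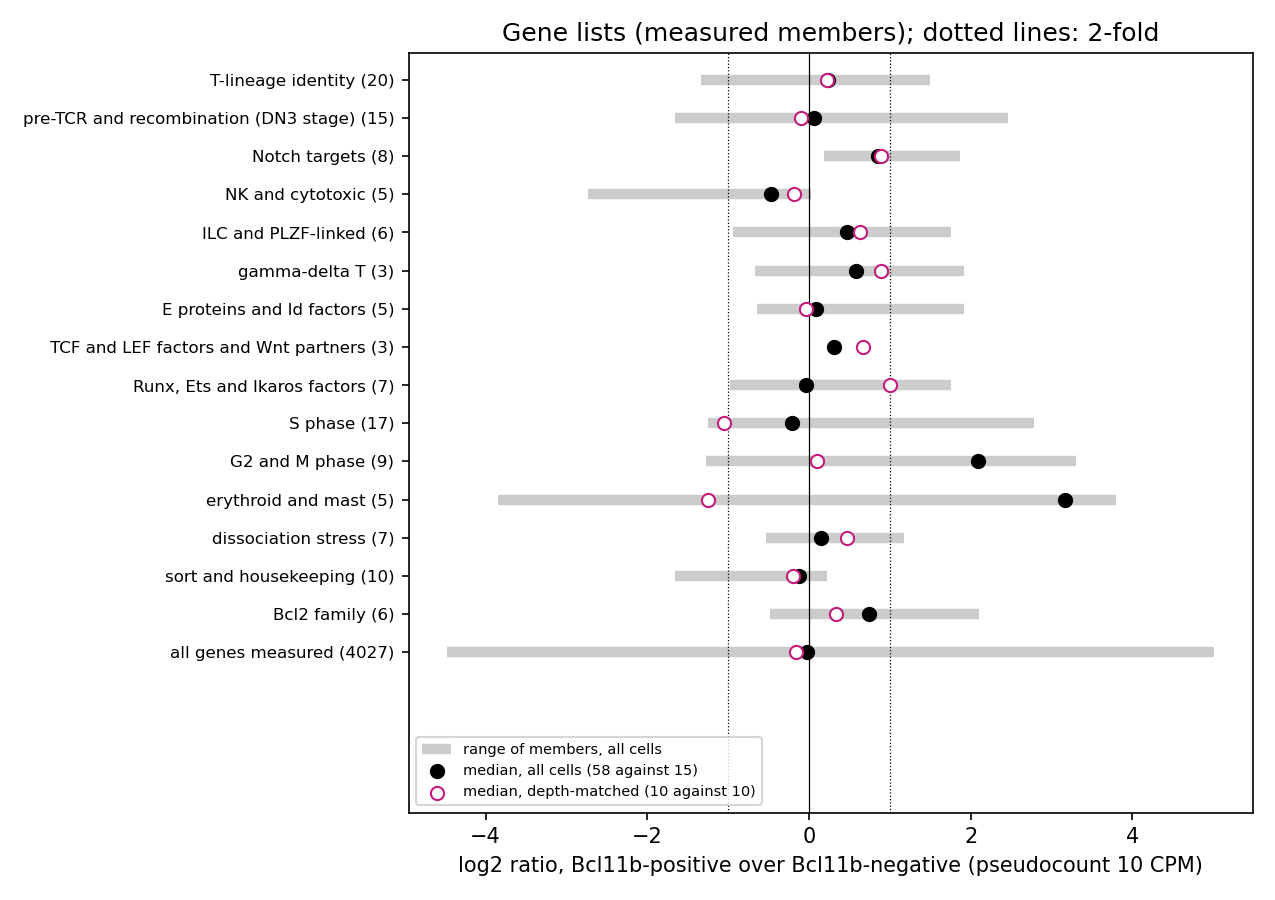
Median log2 ratio (Bcl11b-positive over Bcl11b-negative, 10 CPM added) of the gene lists with 3 or more measured members, over all cells (filled) and in depth-matched cells (open), with the range of members over all cells as a grey bar. The medians of T-lineage identity (0.23 and 0.23) and Notch targets (0.85 and 0.90) are alike in both, while those of G2 and M phase (2.09 and 0.10) and erythroid and mast genes (3.16 and -1.25) are not.

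Markers of other cell types were read on both sides of the split. Of 15 myeloid markers 12 had 0 counts in each set, and their summed level ran from 0 to 1166 CPM in positive and from 0 to 635 CPM in negative cells. B cell markers had 8 of 11 at 0 in positive and 10 of 11 in negative cells, with Cd79b at 127 and 128 CPM. Of the dendritic and the thymic stroma genes 2 each were measured, with medians of -0.36 and 0.21, and of the gamma-delta T genes 3, with a median of 0.58. The dendritic markers summed to 467 CPM in positive and 429 CPM in negative cells, and 50 of 58 and 10 of 15 cells had at least 1 of them at 2 or more counts. Those of thymic stroma summed to 347 and 275.5 CPM, in 47 of 58 and 9 of 15 cells. The erythroid and mast markers summed to 1474 CPM in positive and 440.5 CPM in negative cells, from 0 to 108378 CPM in single positive cells and from 0 to 1109 CPM in negative cells. Hba-a1, Hba-a2, Hbb-bs and Hbb-bt had 2 or more counts in 7, 5, 5 and 2 of the positive cells and in 1, 1, 2 and 0 of the negative cells. Of the positive counts of Hbb-bs, 66.5% lay in 1 cell, and Cpa3 made up 290 of the 440.5 CPM of the negative cells. The part of these markers in the other results was not tested.

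Sort and housekeeping genes were mostly within 2-fold between the sets, but not all at like levels. Actb had 7650 and 10483 CPM (log2 ratio -0.45, and -0.32 at matched depth). Ptprc had 471 and 649 CPM (log2 ratio -0.45, and 0.13 at matched depth). Eef1a1 had 2919 and 3418 CPM (log2 ratio -0.23, and -0.53 at matched depth). Other members lay closer together. B2m had 8268 and 8792 CPM, Ppia 4868 and 5425 CPM and Tpt1 2876 and 2987 CPM, each found in all 58 and 15 cells. Of 10 measured sort and housekeeping genes, 0 were at least 2-fold higher and 1 lower (Cd8a, with 75.6% of its negative counts in 1 cell), and the median was -0.12, or -0.20 at matched depth. Of 7 measured dissociation stress genes 1 was higher, Jun, an immediate-early factor, at 175 and 72.1 CPM (log2 ratio 1.17), and the median was 0.14. At matched depth 3 were higher, Jun (1.46), Junb (1.64) and Btg2 (1.80), and the median was 0.48. With equal weight per cell Junb and Btg2 had -0.04 and 0.04. Fos went the other way (-0.53, and -0.55 at matched depth), with 98.9% of its negative counts in 1 cell. Ier2 and Hsp90aa1 each had -0.30 over all cells, and 0.48 and -0.19 at matched depth.

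How many genes differed followed their level. Among 2231 genes with a mean of both sets under 100 CPM, 41.1% were at least 2-fold apart, and the share was 19.8% of 905 genes at 100 to 200 CPM, 9.97% of 582 at 200 to 500 CPM and 4.76% of 168 at 500 to 1000 CPM. Of 141 genes at 1000 CPM or more, 0 were 2-fold apart. Of the 605 genes higher in positive cells 428 were also at least 2-fold higher at matched depth, and of the 557 lower genes 445 were also lower there, on cells that both comparisons share. Without the highest cell of each gene in each set, 907 genes were higher and 141 lower. Leaving out 1 cell takes more from the 15 negative than from the 58 positive cells, so by construction it lowers the negative levels more.

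**Figure D4:**
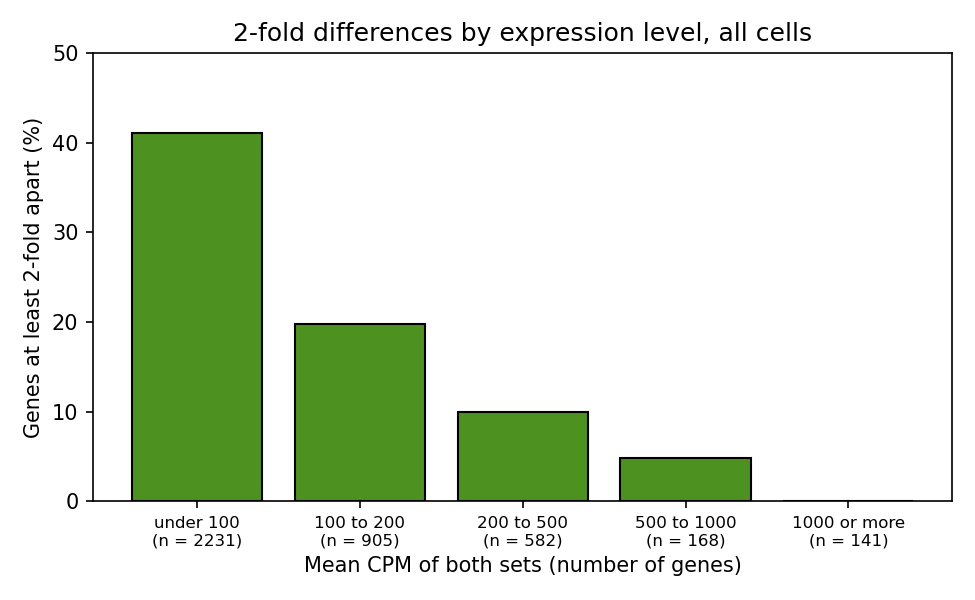
Share of measured genes at least 2-fold apart between Bcl11b-positive and Bcl11b-negative cells (vertical axis, percent), by the mean CPM of both sets (horizontal axis, number of genes in brackets), all cells. The bars fall from 41.1% under 100 CPM to 0 of 141 genes at 1000 CPM or more.

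The genes with the highest ratios were of low level. To be named, a gene needed 2 or more counts in 20% of the cells of the higher set, no cell with 50% or more of that set's counts and at least 2-fold in the same direction both after thinning and at matched depth. Among the 4027 genes measured, 363 met this in the higher and 134 in the lower direction. The limit of 50% in any cell is by construction harder to meet in the 15 negative than in the 58 positive cells. Without these conditions 605 genes were at least 2-fold higher and 557 at least 2-fold lower. The lean of 363 against 134 is therefore not read as a result. The top 12 were Mob1a, Eml4, Ypel2, Msl3, Upf2, Kdm3a, Itga4, Hivep1, Dlgap4, Blvra, Mgat4a and Zfp664, and 6 of them had 0 counts in the negative cells.

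Mob1a, a Hippo pathway adaptor gene, had 98.8 CPM (88.9 to 109.5) and 0 CPM, at least 20.6-fold higher at the floor of 3 counts over the negative set (exact lower limit 16.6-fold), and was found in 28 of 58 positive cells. Eml4, a microtubule protein gene, was at least 20.5-fold higher, Msl3, of a histone acetylation complex, at least 18.5-fold, and Kdm3a, a histone demethylase gene, at least 15.6-fold. Upf2, a nonsense-mediated decay factor, had 159 and 8.01 CPM, a ratio of 19.9 (8.46 to 61.4) on 5 negative counts. Itga4, the alpha 4 integrin gene, had 87.1 and 1.60 CPM, a ratio of 54.4 (9.69 to 2155) on 1 negative count. Ypel2 had 166 and 6.41 CPM, with 46.6% of the positive counts in 1 cell.

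The 12 lowest were Tenm4, Far1, B3galnt2, Gprasp1, Mllt11, Dennd5a, Parn, Nmnat3, Mfge8, Arid5a, Pepd and Taf2. Each rested on 3 to 5 negative cells with 2 or more counts. Arid5a, an RNA-binding factor of cytokine transcripts, had 48.5 (41.6 to 56.1) and 216 (181 to 256) CPM, a ratio of 0.224 (0.178 to 0.282), and was found in 14 of 58 and 5 of 15 cells. Far1, a fatty acyl reductase gene, had 21.8 and 165 CPM (log2 ratio -2.46, and -3.94 at matched depth). Mfge8, a phagocytosis bridging protein gene, had 19.1 and 106 CPM and 0 CPM in the matched positive cells. Tenm4, Parn and Taf2 turned over to log2 ratios of 0.73, 0.98 and 0.90 among barcode numbers 1 to 48, where the negative set had 6 cells.

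Within the 58 positive cells, the Bcl11b level followed none of the marker genes closely. Spearman's rho with Bcl11b CPM was 0.32 for Rag1 and 0.15 for Tcf7, and -0.32 for Lck, -0.21 for Gzma, -0.13 for Ptcra and -0.13 for Id2. Bcl11b CPM itself had a rho of -0.38 with the total counts of the cell. These are descriptions over cells of 1 library that share its depth range and carry no p.

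The same split was made in the other DN2-3 plates. Cells with 0 Bcl11b counts made up 19.7% (11.5 to 30.5%) of the library labelled Vav-cre, 6.82% (2.54 to 14.3%) of WT, 6.45% (2.40 to 13.5%) of Tcf7-/- and 4.40% (1.21 to 10.9%) and 5.75% (1.89 to 12.9%) of the Lck-cre plates. Thinned to 5000 counts these shares were 42% (30.2 to 54.5%), 12.9% (6.64 to 22%), 24.2% (15.8 to 34.3%), 24.4% (16 to 34.6%) and 22% (13.6 to 32.5%). Summed Bcl11b was 263 CPM in the library labelled Vav-cre, 833 in WT, 418 in Tcf7-/- and 669.6 and 608 in the Lck-cre plates.

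Those plates had only 6 (WT), 6 (Tcf7-/-), 4 and 5 (Lck-cre) negative cells, and the plate with 4 was given no ratio. At least 2-fold apart were 40%, 39.8% and 64.5% of measured genes in WT, Tcf7-/- and the second Lck-cre plate, against 28.9% in the library labelled Vav-cre. The log2 ratio of Cd3g was -0.03, 0.02 and -0.01 there over all cells, and -0.45, -0.41 and 0.31 in the 5 depth-matched pairs of each plate. Over all cells that of Gzma was 0.61 in WT, -0.09 in Tcf7-/- and 1.20 in the Lck-cre plate, where 37 negative counts were read.

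Rag1 did not share 1 direction over the plates. Its log2 ratio was 1.08 in WT, but -1.38 in the 5 depth-matched pairs there, -1.07 in Tcf7-/- (-1.10 matched) and 2.1 in the Lck-cre plate on 2 negative counts. Ptcra had 1.53 in WT, -0.68 in Tcf7-/- and 3.88 in the Lck-cre plate on 1 negative count. Cd247 was -0.17 in WT, 1.41 in Tcf7-/- and 1.66 in the Lck-cre plate. Satb1 was 0.42 in WT, 3.49 in Tcf7-/- on 2 negative counts and -1.39 in the Lck-cre plate. The difference between plates was not tested.

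**Figure D5:**
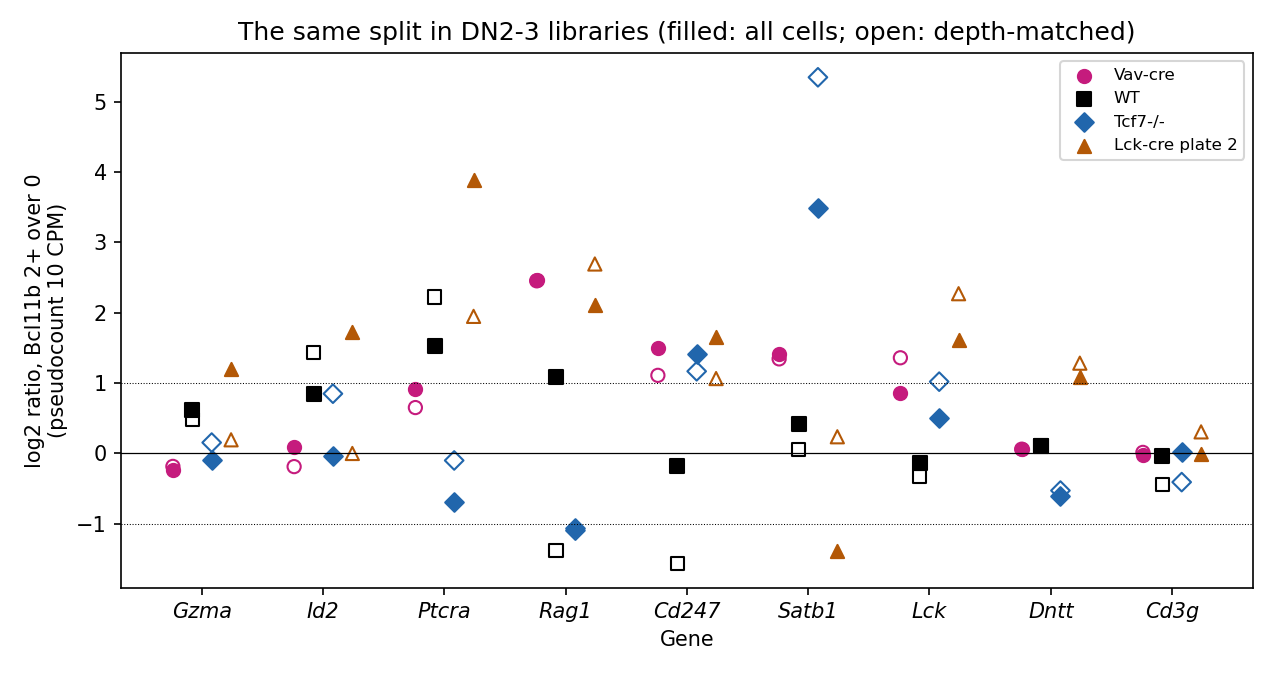
Log2 ratios of 9 genes between cells with 2 or more and with 0 Bcl11b counts (10 CPM added) in 4 DN2-3 libraries, filled for all cells and open for depth-matched cells. The Cd3g values of all cells lie between -0.03 and 0.02, whereas those of Rag1 run from -1.07 in Tcf7-/- to 2.46 in Vav-cre. In depth-matched cells the Cd3g values run from -0.45 in WT to 0.31 in the Lck-cre plate.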

How the data were processed

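Complementary DNA of each cell was amplified by STRT with changes and read as paired ends, per the labels' protocols, which also name Smart-seq2. TopHat2 2.1.1, HTSeq and the genome mm10 are named per the submitters' processing notes; whether molecular identifiers were collapsed is not given in the sources used here. The authors deposited a table of raw counts, not normalized, and log2 values, log2(TPM/10 + 1), used here as an alternative.

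Of 23154 entries, 27 with a date in place of a symbol (0.141% of counts in the library) were dropped. Counts were summed over the cells of each set and scaled to CPM. A gene was measured at 50 CPM or more in either set. Log2 ratios used a pseudocount of 10 CPM, and a gene was called at 2-fold or more. Intervals are exact at 95%: Poisson for a level, conditional binomial for a ratio, Clopper-Pearson for a share. Amplified molecules are not independent, so they cover counting error only. Thinning used the 10th percentile of totals, rounded down to a whole 1000. Tools were Python 3.11.15 with numpy 2.4.6, pandas 2.3.3 and scipy 1.17.1, and the steps were tested on simulated data. Promoter sequences are those of RefSeq, matched by symbol for 4 of 4 genes.

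The cells, the 20 gene lists and the settings were chosen with earlier results of these data known. Named genes were Bcl11b, Gzma, Id2, Ptcra and Tcf7, the 12 highest and 12 lowest ratios under the conditions given with them, and up to 4 measured members of each list with the largest ratios; other list members and genes named for their roles were chosen after their values were seen. Cells were sorted singly into plates, so no doublet caller was run. All 96 barcode numbers recur in the 8 libraries, and 0 cell columns were identical. Unnamed gene models, Xist and Y-linked genes were not named.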

Additional observations from a re-analysis of the deposited data

How the results depend on the processing

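No paired analysis was possible because barcode numbers name cells, not pairs, and no comparison here rests on a test. The numbers of higher and of lower genes (605 and 557) became 1083 and 906 after thinning, 1058 and 897 with a second random seed, 1105 and 1030 in depth-matched cells, 981 and 900 with barcode numbers 1 to 48, 986 and 940 with 49 to 96, 1373 and 894 with a minimum of 20 CPM, and 1919 and 969 with no minimum; without the highest cell of each gene 141 were lower. The Gzma log2 ratio (-0.23) was 0.017 thinned, -0.038 with the second seed, -0.079 at the 25th percentile depth, -0.18 matched, -0.062 with equal weight per cell, -0.28 with positive cells of 5 or more Bcl11b counts, -0.024 without the highest cell, -0.15 and -0.27 with barcodes 1 to 48 and 49 to 96, -0.10 on the deposited log2 values, and 0.00035 without the deepest negative cell (chosen after seeing the data). Id2 (0.08) was 0.97 thinned, 0.69 with the second seed, -0.19 matched, 0.63 with equal weight, 0.66 with barcodes 1 to 48 and 0.93 on the deposited values. Ptcra (0.92) was 1.21, 0.41 and 0.47 in the 3 thinnings, 0.17 with equal weight, 0.36 with barcodes 49 to 96 and 0.31 on the deposited values. Rag1 kept its direction in all 17 alternatives, from 1.44 to 4.01. Medians of lists that moved included NK and cytotoxic (0.13 thinned, -1.13 equal weight), innate lymphoid (1.09 at the 25th percentile depth), pre-receptor (0.71 with barcodes 1 to 48), Notch targets (0.16 equal weight), G2 and M phase (0.78 thinned, 0.10 matched, 0.11 equal weight), Runx, Ets and Ikaros (1.18 thinned, 1.00 matched) and the Bcl2 family (1.5 thinned). Erythroid and mast turned to -1.25 matched, -0.90 with barcodes 49 to 96 and -0.039 on the deposited values, and early progenitor to 0.18 with no minimum. Tenm4, Parn and Taf2 turned to 0.73, 0.98 and 0.90 with barcodes 1 to 48. Shares of positive and negative cells were 82% and 100% (Id2) and 74% and 66.7% (Ptcra) at the 25th percentile depth; of positive cells, 82.8% and 72.4% unthinned and 69% and 62.1% at 1 or more counts. In other plates, Ptcra was 0.49 in WT thinned. Tcf7-/- Gzma was 0.10 thinned, 0.15 matched and 0.16 with equal weight, Id2 0.49, 0.85 and -0.67, and Ptcra -0.44 thinned and -0.10 matched. Lck-cre Gzma was 0.20, 0.19 and, reversed, -0.090; Id2 2.09 thinned and 1.86 with equal weight; Ptcra 2.09 thinned and 1.95 matched. The causes were not tested. Depth limits the negative set, whose 5 shallowest cells would hold 0.735 to 1.07 Bcl11b counts at the median positive level.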
